A study of Mus musculus with 12 samples.

Results

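Chil1 (Chi3l1) encodes chitinase-3-like protein 1, the secreted glycoprotein known in the clinic as YKL-40. It was found by its Ensembl identifier, ENSMUSG00000064246, and is 1 of the 41388 genes counted in each of 12 RNA sequencing libraries from mouse brain. All animals were Bmal fl/fl C57BL/6 mice of the ALDH1L1-CreERT2 strain, in which a tamoxifen-activated Cre recombinase is driven by an astrocyte promoter. Bmal1 (official symbol Arntl) encodes a core activator of the circadian clock. Both the Cre- animals (wild type, WT) and the Cre+ animals (astrocyte knockout, aKO) were given tamoxifen by oral gavage, 2 mg daily over 5 days, at 2 months, and were 7 months old when the brains were collected. Beads against ACSA-2, a surface epitope of astrocytes, divided each digested brain into an astrocyte fraction and a flowthrough of cells that did not bind. Astrocyte libraries came from WT animals 201, 202 and 265 and from aKO animals 203, 205, 208, 221 and 222. Flowthrough libraries came from WT 201 and 202 and aKO 203 and 205, so 4 of the 8 animals gave both fractions. The titles of the flowthrough libraries also hold an unexplained letter b, and whatever it marks cannot be told apart from the fraction. The astrocyte library of animal 202 is WT by its title, by its flowthrough partner and by the group sizes of the series, but its genotype field names a knockout. It was kept as WT. The genotype values of Chil1 in astrocytes are also given with that library counted as aKO.

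Chil1 belongs to glycoside hydrolase family 18, the family of chitinases, enzymes that cut the polysaccharide chitin. The Chil1 protein kept the chitin-binding fold but lacks the catalytic residues, so it binds without cutting and acts mainly as a secreted signal through surface receptors. In brain it is made mainly by astrocytes and is widely used as a cerebrospinal fluid marker of glial activation, and in other tissues macrophages and neutrophils make it. Earlier work has described the gene as a target of the astrocyte clock.

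Chil1 lies on the plus strand of chromosome 1, from 134182176 to 134190181 in GRCm38, with 11 merged exon intervals that add up to 2804 bases. GENCODE vM21 lists 8 transcripts, 5 of them coding, and no other gene overlaps it, so its reads have no overlapping neighbour to be confused with. The 250 bases before the RefSeq start (GRCm38.p6, chr1:134181906-134182155, plus strand) are shown because clock factors act on other genes through E-boxes and D-boxes. Capitals mark each match to the E-box core CANNTG and to the D-box core TTANNTAA.
Chil1 promoter: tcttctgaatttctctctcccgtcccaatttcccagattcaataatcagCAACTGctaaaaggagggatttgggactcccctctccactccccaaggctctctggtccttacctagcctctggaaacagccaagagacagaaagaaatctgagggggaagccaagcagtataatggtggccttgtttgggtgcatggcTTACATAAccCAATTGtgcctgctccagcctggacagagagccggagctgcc
The window held 2 E-box cores, whose first bases lay 201 and 42 bases before the start, and 66.2% of 32536 RefSeq windows of the same length held at least 1. The D-box core, bound by the factors Dbp, Tef and Hlf and by the repressor Nfil3, matched 1 time, 52 bases before the start, 2 bases away from the nearer E-box core. A D-box core was present in 5.41% of all windows. The letters of the canonical E-box CACGTG (6.04% of windows) and of the ROR and REV-ERB half-site AGGTCA (14.04%) were not found on either strand. The NFI half-site TTGGC matched 2 times, both on the minus strand (41.6% of windows), and the STAT palindrome TTCNNNGAA (7.04%) did not match. These matches describe letters and not sites in use, and no binding was measured in this series.

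Astrocyte libraries had total counts of 21816637 to 62655238, and flowthrough libraries 33019572 to 53868165. Chil1 received between 441 and 5157 of them, for which counting error alone is 1.39% to 4.76% of the value. Among the astrocyte libraries WT 265 stood apart in its cell mix. It had the lowest summed level of 14 astrocyte markers (3597 CPM, counts scaled to each library's total, against 5383 to 19517 in the other 7 libraries) and the highest sums of 8 ependymal (2610 CPM) and 8 choroid plexus markers (171298 CPM). The library of aKO 222 had the next lowest astrocyte marker sum, 5383 CPM, and the largest share of mitochondrially encoded counts, 36.5%. No marker of any of the 11 cell type lists was at 0 in every library of a fraction.

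Arntl, the gene that Cre targets, had 3.50, 6.80 and 2.13 CPM in astrocytes of WT 201, 202 and 265. In aKO astrocytes 203, 205, 208, 221 and 222 it was at 10.5, 25.0, 8.99, 12.5 and 5.05 CPM, and 4 of these 5 values were above every WT value. Flowthrough values were 3.21 and 4.39 CPM in WT 201 and 202 and 3.49 and 1.57 CPM in aKO 203 and 205. Counts over a whole gene also take in transcripts that lack a deleted exon, so these values do not check the labels, and genotypes below are as labelled.

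Chil1 was highest in 2 of the 3 WT astrocyte libraries and was low, and nearly the same, in all 5 aKO libraries. WT astrocytes 201, 202 and 265 had 82.3, 104 and 27.1 CPM. Astrocytes of aKO 203, 205, 208, 221 and 222 had 35.6, 33.3, 40.9, 29.3 and 32.5 CPM. WT 201 and 202 lay above every aKO library, but WT 265 lay below every one, so the groups overlapped. With TMM scaling, which allows for a few genes taking a large share of the counts, WT 265 had 28.3 CPM and lay within the aKO range of 23.3 to 39.9.

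With the genotypes as labelled by title, Chil1 spread more widely over the WT than over the aKO astrocyte libraries. The WT mean was 71.3 ± 39.9 CPM (SD, n = 3) and the aKO mean 34.3 ± 4.29 CPM (SD, n = 5), so the WT mean was 2.08 times the aKO mean. The SD was 55.9% of the mean in WT and 12.5% in aKO astrocytes, or 61.1% and 23.2% with TMM scaling. WT 202 had 3.86 times the level of WT 265, whereas the highest aKO library had 1.39 times the level of the lowest. With library 202 counted as aKO, the 2 remaining WT libraries averaged 54.7 ± 39.1 CPM (SD). The 6 aKO libraries then averaged 46.0 ± 28.9 CPM (SD, range 29.3 to 104), so the WT mean was 1.19 times the aKO mean.

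**Figure D1:**
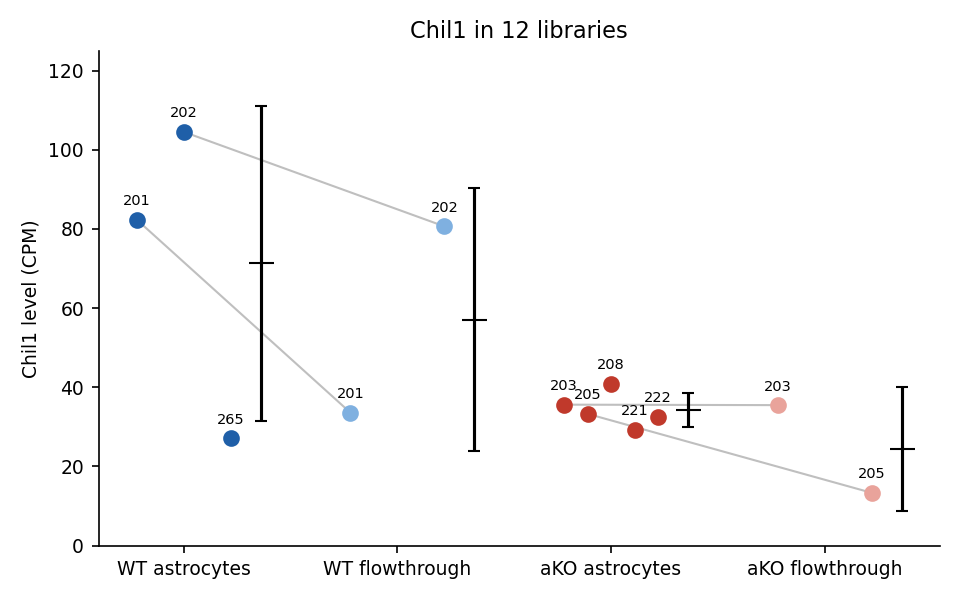
Chil1 level in CPM (vertical axis, linear) in the 12 libraries, by fraction and genotype. Each point is a library with its animal's number, grey lines join the fractions of the same animal, and black bars are the mean ± SD. The 5 aKO astrocyte libraries sit between 29.3 and 40.9 CPM, with WT 201 and 202 above them and WT 265 below.

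Whether loss of Bmal1 in astrocytes changed Chil1 was asked with edgeR's quasi-likelihood test over 18950 genes. The log2 fold change, aKO against WT astrocytes, was -1.14 (SE 0.39, 95% interval -1.98 to -0.31), with an unadjusted p of 0.0108. After Benjamini-Hochberg adjustment over all genes in edgeR the p was 0.9997, so Chil1 was not called. The test called 5 genes, 0.0264% of those tested, and 299 (1.58%) had an unadjusted p under 0.05. By unadjusted p Chil1 stood at place 66, in the lowest 0.348% of the genes, and 1.19% of the genes had a log2 fold change as low or lower. Chil1 was chosen with earlier results of these data known. Its place and the p-values of its genotype tests, here and below, are therefore not independent support.

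An exact permutation test of the single gene gave a mean difference of -0.84 on the log2(CPM + 1) scale, two-sided exact p = 0.107 over 56 splits. The smallest p that this design allows is 0.0179. With library 202 counted as aKO the difference was -0.20, with an exact p of 1.0 over 28 splits.

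Single WT libraries set the size of the Chil1 difference. Without WT 265 the edgeR log2 fold change was -1.51 (unadjusted p = 0.000708), and the exact permutation test gave -1.42 with p = 0.0476, the smallest that its 21 splits can give. Without WT 202 the log2 fold change was -0.63 (unadjusted p = 0.138), and with the library of 202 counted as aKO it was -0.12 (unadjusted p = 0.829). All 16 alternative fits gave a value below 0, from -1.58 to -0.12, and none passed after adjustment over all genes (lowest adjusted p in edgeR, 0.402).

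**Figure D2:**
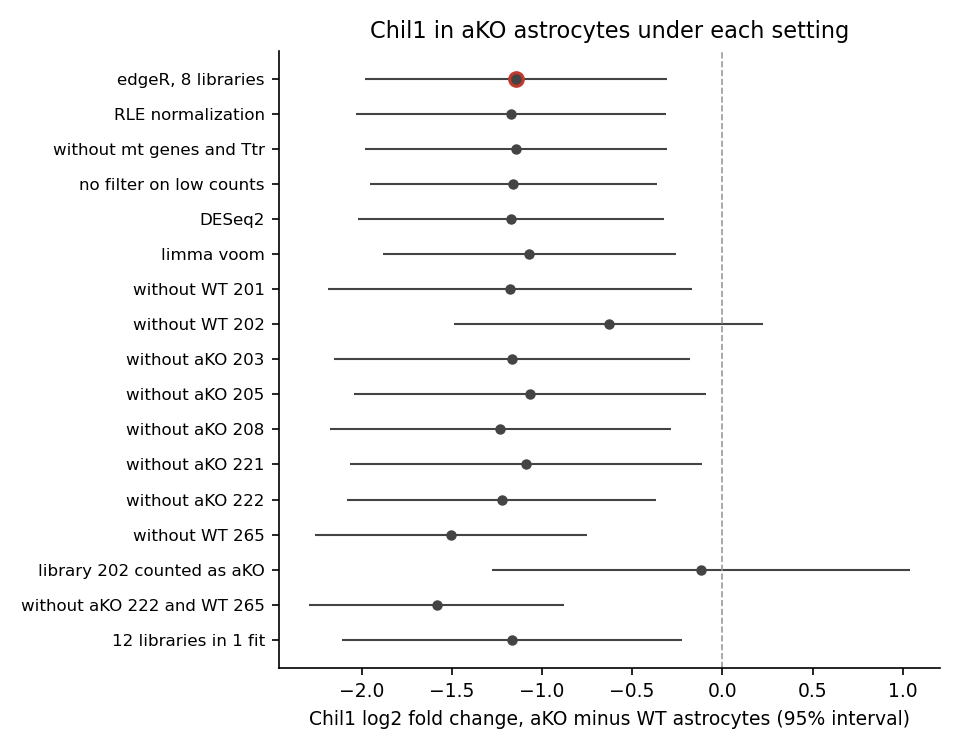
Log2 fold change of Chil1, aKO minus WT astrocytes (horizontal axis), with its 95% interval, under the reported edgeR fit (red, top) and 16 alternatives (rows). The values run from -1.58 to -0.12, and the intervals cross 0 without WT 202 and with library 202 counted as aKO.

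The amount of astrocyte RNA moved with Chil1 among the WT libraries. The summed astrocyte markers were 10964, 19517 and 3597 CPM in WT 201, 202 and 265, the same order as Chil1. They ran from 5383 to 16487 CPM in aKO, where Chil1 hardly varied. Per 1000 CPM of astrocyte markers, Chil1 was at 7.51, 5.35 and 7.52 CPM in WT 201, 202 and 265. It was at 2.16, 3.08, 5.32, 2.05 and 6.04 in aKO 203, 205, 208, 221 and 222. On this scale WT 265 was no longer low and the WT libraries lay close together. The groups still overlapped, since aKO 222 was above WT 202. The means were 6.80 ± 1.25 (SD, n = 3) in WT and 3.73 ± 1.84 (SD, n = 5) in aKO, a log2 difference of -0.99 with a two-sided exact permutation p of 0.0536. With library 202 counted as aKO the log2 difference was -1.04, with an exact permutation p of 0.107. This ratio was chosen after the values were seen. Its denominator was the lowest of the 8 astrocyte libraries in WT 265, and within aKO it was highest in 203. Between fractions of the same animal Chil1 did not scale with these markers, at 2.14 to 13.9 times as much per marker in flowthrough. Whether astrocyte content set the Chil1 level of WT 265 was not tested. In bulk libraries fewer cells of a type and less RNA per cell cannot be told apart.

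Of the 14 astrocyte markers, 3 had a value above 0 and 11 below in aKO astrocytes (median log2 fold change -0.17). With library 202 counted as aKO, 13 of them were above 0. Lists of other cell types were partly mixed, with microglia at 6 above and 4 below 0, neutrophils 3 and 6, and lymphocytes 5 and 3. Mural cells had 5 and 1, fibroblasts 2 and 4, and neurons 5 and 2. The markers of some other cell types differed in the same direction within their lists. All 8 ependymal markers (median log2 fold change -0.84) and all 8 choroid plexus markers (median -0.25) had values below 0 in aKO astrocytes. All 10 oligodendrocyte markers (median 0.86) and all 8 endothelial markers (median 0.43) had values above 0, against a median of 0.02 over all genes. These counts rested in part on single libraries. Without WT 265, 5 of the 8 ependymal and 5 of the 8 choroid plexus markers had values above 0, and without WT 201, 6 of the 8 choroid plexus markers did. Between 8 and 10 oligodendrocyte markers were above 0 in every alternative, and 6 of 8 endothelial markers with library 202 counted as aKO. None of these markers was called, and their part in the Chil1 difference was not tested.

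In flowthrough Chil1 had 33.6 and 80.6 CPM in WT 201 and 202 and 35.5 and 13.4 CPM in aKO 203 and 205. One WT library lay above both aKO libraries and the other lay between them. The WT mean was 57.1 ± 33.3 CPM (SD, n = 2), which was 2.34 times the aKO mean of 24.4 ± 15.7 CPM (SD, n = 2). The edgeR log2 fold change from all 12 libraries was -0.94 (SE 0.63, 95% interval -2.27 to 0.39, adjusted p = 0.804). No gene was called in flowthrough (0.0%, 0 of 20637 genes in edgeR and 1 in DESeq2), and 817 genes (3.96%) had an unadjusted p under 0.05. Without the flowthrough of WT 202 the Chil1 value was -0.31, and without that of aKO 203 it was -1.73.

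All 14 astrocyte markers were also below 0 in aKO flowthrough (median -1.35), with marker sums of 691 and 7047 CPM in WT 201 and 202 and 1762 and 311 CPM in aKO 203 and 205. Without the flowthrough of WT 202, 12 of the 14 were above 0 (median 0.90). Their part in the Chil1 value was not tested. Subtracting the flowthrough effect of genotype on Chil1 from the astrocyte effect gave -0.23 (SE 0.77, 95% interval -1.85 to 1.402, adjusted p in edgeR 0.985), and this difference was above 0 in 4 of 21 alternatives. These included the fit with the astrocyte library of 202 counted as aKO and the flowthrough of the same brain kept as WT. The test of the difference called no gene (0.0%), with 499 of 20637 (2.42%) at an unadjusted p under 0.05 and none in DESeq2.

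Per kilobase of exon, the order of the group means of Chil1 was WT astrocytes at 25.4 ± 14.2 RPKM (SD, n = 3), WT flowthrough at 20.4 ± 11.9 (n = 2), aKO astrocytes at 12.2 ± 1.53 (n = 5) and aKO flowthrough at 8.71 ± 5.58 (n = 2). The libraries of each neighbouring pair in this order overlapped. Between 5.50% of the detected genes, in astrocytes of WT 202, and 20.4%, in flowthrough of aKO 205, had a higher RPKM than Chil1. Chil1 was therefore among the more abundant transcripts in both fractions.

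Chil1 was not set apart in the astrocyte fraction the way astrocyte markers were. Averaged over both genotypes, its log2 fold change, astrocytes against flowthrough, was 0.22 (SE 0.39, 95% interval -0.61 to 1.04, adjusted p in edgeR 0.737). All 14 astrocyte markers had larger values, from 0.77 for Sox9, a glial transcription factor, to 3.53 for Gjb6, a gap junction protein. Their median was 2.48, and 10 of the 14 were called higher. Of all genes tested 17.0% were called, 8.52% higher and 8.52% lower. In a fit that blocks on the animal, over the 8 paired libraries, Chil1 had 0.41 (SE 0.30) and was again not called. That fit called 5951 genes, against 3517 in the fit of 12 libraries and 3562 without the block on the same 8. Leaving out the astrocytes of WT 202 or the flowthrough of aKO 205 brought the Chil1 value to -0.05 and -0.01.

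Within single brains Chil1 was 2.45, 1.30, 1.003 and 2.49 times as high in astrocytes as in flowthrough, in animals 201, 202, 203 and 205. The summed astrocyte markers in the same pairs were 15.9, 2.77, 9.36 and 34.7 times as high. In each of the 4 animals, then, Chil1 was less concentrated in the astrocyte fraction than the markers were. Per 1000 CPM of astrocyte markers the flowthrough held 48.6, 11.4, 20.1 and 42.9 CPM of Chil1, which was 6.47, 2.14, 9.33 and 13.9 times the value in astrocytes of the same animal. The mean log2 ratio of Chil1 CPM was 0.75 ± 0.66 (SD, n = 4, above 0 in 4 of 4, two-sided exact sign-flip p = 0.125). Per astrocyte marker the mean log2 ratio was -2.70 ± 1.16 (SD, n = 4, below 0 in 4 of 4, exact p = 0.125). With 4 animals 0.125 is the smallest p that this test can give, and both ratios were tested after the values were seen. With TMM scaling animal 203 turned, with 32.2 CPM in astrocytes and 41.5 in flowthrough. On that scale 205 had 23.3 and 17.7 CPM, a smaller gap than by CPM. Animal 201 had 70.4 and 36.6 CPM, and 202 had 116 and 77.0 CPM.

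The flowthrough was rich in immune cells. The sum of 10 microglial markers ran from 6890 to 11118 CPM in flowthrough and from 320 to 708 CPM in astrocytes. For 10 neutrophil markers the ranges were 2851 to 6237 CPM and 107 to 582 CPM. All 10 microglial and all 10 neutrophil markers were called lower in astrocytes, against 8.52% of all genes. The 8 choroid plexus markers had larger sums, 82792 to 321575 CPM in flowthrough and 12202 to 171298 CPM in astrocytes. All 8 had values below 0, astrocytes against flowthrough, but none was called in edgeR. The part of any of these cell types in the flowthrough level of Chil1 was not tested.

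**Figure D3:**
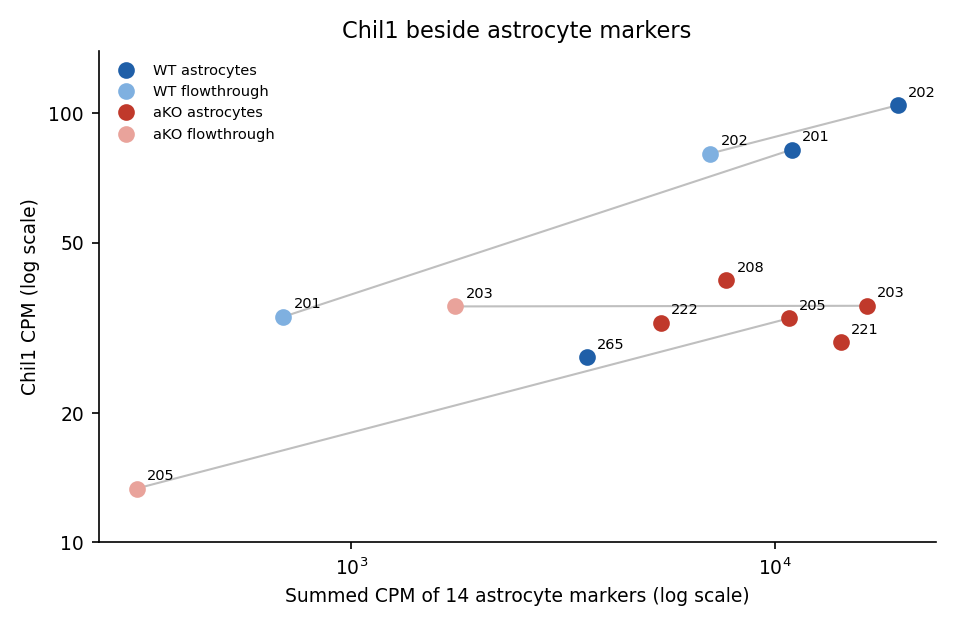
Chil1 in CPM (vertical axis, log scale) against the summed CPM of 14 astrocyte markers (horizontal axis, log scale) in the 12 libraries, with animal numbers and grey lines joining the fractions of the same animal. Marker sums span 311 to 19517 CPM while Chil1 spans 13.4 to 104 CPM, and WT 265 has the lowest marker sum of the 8 astrocyte libraries.

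Among its own family Chil1 was the most abundant member in astrocytes per kilobase of exon. The true chitinases Chia1 and Chit1, the chitinase-like Chil3, Chil4, Chil5 and Chil6, the oviductal glycoprotein Ovgp1, the lysosomal chitobiase Ctbs and Chid1 make up the rest of the list of 10. Over the 3 WT astrocyte libraries Ctbs had 4.78 ± 3.13 RPKM, Chia1 4.01 ± 2.94, Chid1 3.55 ± 2.30 and Chil3 2.80 ± 1.85, against 25.4 ± 14.2 for Chil1. Chit1 had 0.113 ± 0.114 RPKM and was listed at 0 in WT 202. Chil6 was below the filter on low counts in every comparison, and Chil4 in the astrocyte comparison.

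Chil3 (Ym1), a chitinase-like protein of macrophages and neutrophils, was higher in flowthrough. It was at 114 and 131 CPM in flowthrough of WT 201 and 202 and at 171 and 14.1 CPM in that of aKO 203 and 205. In the 8 astrocyte libraries it ran from 2.61 to 14.2 CPM. The edgeR log2 fold change, astrocytes against flowthrough, was -4.39 (SE 0.52, adjusted p = 2.4e-05). Chil4 (Ym2) was also lower in astrocytes, with -3.84 (SE 0.70, adjusted p = 0.00127). Chil3 and Chil4 are near-identical copies, so reads may have been split between them.

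Ovgp1 was the only family member called higher in astrocytes, at 2.51 (SE 0.64, adjusted p in edgeR 0.013), and it overlaps a predicted gene. It lost the call in 3 of 21 alternatives. Chit1 (-1.004), Chil5 (-0.42), Chia1 (-0.32), Chid1 (-0.09) and Ctbs (0.32) were not called. In all, 1 of 9 tested members was called higher and 2 lower, against 8.52% of all genes in each direction.

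For genotype, 6 of the 8 family members tested in astrocytes had a value above 0 and 2 below, with none called and a median of 0.18. With the genotypes as labelled by title, Chil1 had the lowest value of the 8. The other one below 0 was Ctbs at -0.03, and the highest was Chit1, the neighbour of Chil1, at 0.92 (SE 1.02). With library 202 counted as aKO, Chia1 had -0.37, below the -0.12 of Chil1. In the DESeq2 fit none of the 8 was called either. Ctbs and Chid1 overlap other genes, and the strand setting of the counting is not known.

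**Figure D4:**
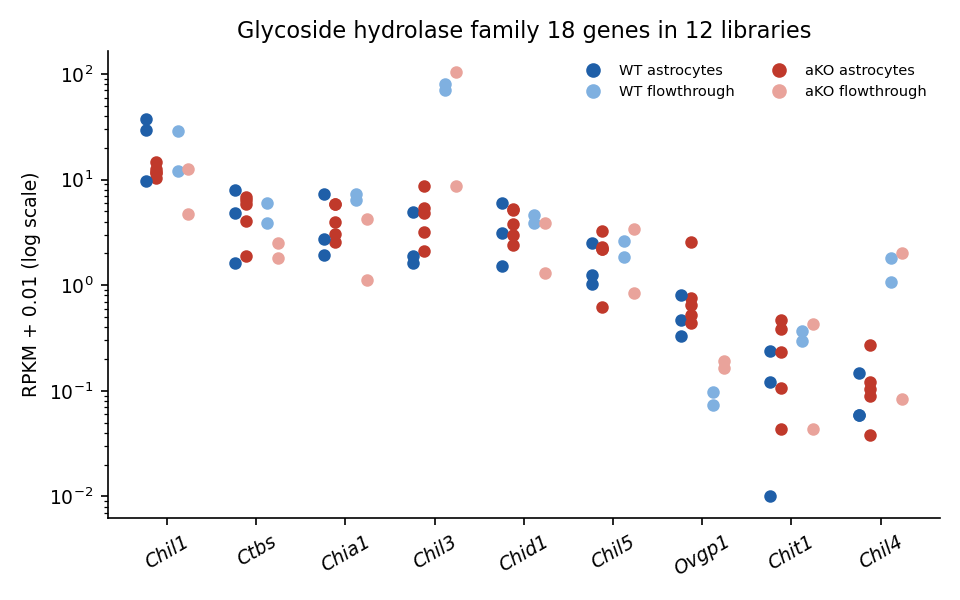
RPKM + 0.01 (vertical axis, log scale) of 9 glycoside hydrolase family 18 genes in the 12 libraries, each point a library coloured by fraction and genotype, with astrocytes on the left and flowthrough on the right of each gene. Chil6, which was at 0 in 7 of the libraries, is not drawn. Chil1 has the highest astrocyte mean, while Chil3 and Chil4 are higher in flowthrough, except in aKO 205.

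Proteins known to bind Chil1 lay on both sides of the fraction comparison. The decoy receptor Il13ra2 was higher in astrocytes, at 4.46 (SE 1.04, adjusted p in edgeR 0.00748), though its level was low, from 0.241 to 6.18 CPM in astrocytes. Its partner in Chil1 signalling, Tmem219, was lower in astrocytes at -1.18 (SE 0.31, adjusted p = 0.0144). Galectin-3 (Lgals3), a carbohydrate-binding protein of activated myeloid cells, had -1.69 (SE 0.36, adjusted p = 0.00439). The integrin chains Itgb3 and Itgb5 had -3.12 (SE 0.42) and -2.79 (SE 0.36).

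Cd44, a hyaluronan receptor, had -0.71, Ager -0.75, the proteoglycan Sdc1 -0.28 and the integrin chain Itgav 0.41, none of them called. So 1 of 9 tested partners was called higher and 4 lower, against 8.52% of all genes in each direction, and Ptgdr2 was below the filter. By genotype in astrocytes 7 of the 9 had a value above 0 and 2 below (median 0.18), from -0.48 for Lgals3 to 0.99 for Il13ra2, and none was called. Without aKO 221 the value of Il13ra2 dropped to 0.22.

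**Figure D5:**
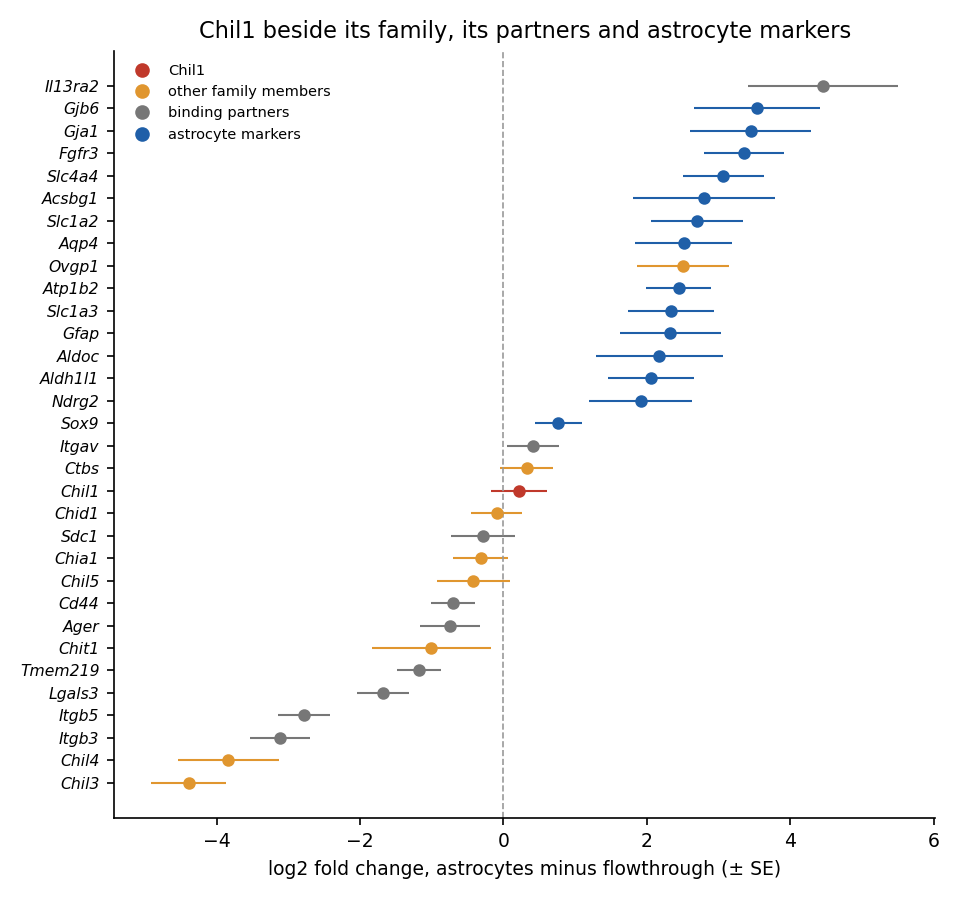
Log2 fold change, astrocytes minus flowthrough (horizontal axis), with ± SE bars, for Chil1 (red), the other tested family members (orange), its binding partners (grey) and 14 astrocyte markers (blue). Chil1 at 0.22 lies below all 14 markers.

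Transcription factors and cytokine receptors known for inducing Chil1 showed no called genotype change. Of 12 tested in astrocytes, 5 had a value above 0 and 7 below (median -0.03). The smallest p-values belonged to the interleukin-1 receptor Il1r1 at 0.65 (SE 0.39), the oncostatin M receptor Osmr at 0.50 (SE 0.39), the myeloid factor Spi1 at -0.90 (SE 0.85) and Stat3 at 0.25 (SE 0.35). Between fractions 3 of the 12 were lower in astrocytes, against 8.52% of all genes, namely Spi1 at -5.01 (SE 0.65), the interleukin-6 receptor Il6ra at -3.40 (SE 0.43) and Nfkb1 at -1.55 (SE 0.28). Nfia, an astrocyte transcription factor of the NFI family, was the most abundant of these genes in astrocytes with 195 to 683 CPM and was not called (0.75, SE 0.42), but it was called in the fit that blocks on the animal (1.11, adjusted p in edgeR 0.0411).

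Clock genes were measured in the same libraries as Chil1. Of 19 tested in astrocytes, 7 had a value above 0 and 12 below (median -0.15), and none was called. Of these, 4 had an unadjusted p under 0.05, against 1.58% of all genes. Arntl had 1.33 (SE 0.47) and Npas2, which can replace Clock as its partner, 1.16 (SE 0.43). The repressors Nr1d1 (REV-ERB alpha) and Per3 had -1.19 (SE 0.46) and -1.15 (SE 0.46). None of these 4 changed sign in 16 alternatives. The time of day of collection was not among the sample fields used here. Its part in the levels of the clock genes and of Chil1 was not tested.

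Nr1d1 had the highest Pearson r with Chil1 among the clock genes. It had 147, 113 and 27.5 CPM in WT astrocytes 201, 202 and 265 and 57.4, 50.7, 41.8, 63.9 and 13.8 CPM in aKO 203, 205, 208, 221 and 222. As with Chil1, WT 201 and 202 were above all aKO libraries and WT 265 below 4 of the 5. Across the 8 libraries its Pearson r with Chil1 was 0.745 and its Spearman rho 0.619, and without WT 201 and 202, the libraries farthest from the median of Chil1, r was 0.172. Rora and Bhlhe40 had a higher rho, 0.690 each, but a lower r, 0.334 and 0.558. Without WT 201 and 202 the r of Rora was 0.546 and that of Bhlhe40 0.105. For Arntl itself r was -0.199 and rho 0.00. Nr1d1 overlaps Thra and Per3 overlaps Camta1. Between fractions 7 clock genes were called higher in astrocytes, with Rorb at 3.16 and Npas2 at 1.73 the largest, then Rora, Per3, Hlf, Cry2 and Cry1, against 8.52% of all genes, and none lower. Cry1 passed in 6 of 21 alternatives. In the fit that blocks on the animal 12 clock genes were called, with Arntl, Bhlhe40, Bhlhe41 and Nr1d1 also higher and Per1 lower in astrocytes (-0.98, adjusted p in edgeR 0.025). That fit called more genes of every kind, 5951 of 20189, with 3206 higher and 2745 lower in astrocytes.

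Beside other secreted and stress-linked gene products of glia, Chil1 had the lowest genotype value in astrocytes with the genotypes as labelled by title. The list held 15 genes, of which Mt1 and Mt3 encode metallothioneins that act mostly inside cells. Of the 15, 4 had a value above 0 and 11 below (median -0.20), and none was called. The lipoprotein Apoe had 0.85 (SE 0.60), Mt3 -0.60 (SE 0.50), Mt1 -0.58 (SE 0.57) and the protease inhibitor Cst3 0.51 (SE 0.52).

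Between fractions the matricellular protein Sparcl1, at 2.05 (SE 0.67), and the protease inhibitor Serpina3n, at 1.74 (SE 0.54), were called higher in astrocytes. Lipocalin-2 (Lcn2), which neutrophils carry in granules, was lower at -3.40 (SE 0.48), as were Cst3 at -1.32 (SE 0.42) and the complement component C3 at -1.15 (SE 0.34). So 2 of the 15 were called higher and 3 lower, against 8.52% of all genes in each direction. Of the 5 called, all but Lcn2 lost the call in some alternatives, and passed in between 8 and 13 of 21. With the block on the animal Cst3 (adjusted p in edgeR 0.0691) and C3 (0.0704) were not called, while Apoe (-1.31) and Igfbp2 (-1.35) were called lower.

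The neighbours of Chil1 on chromosome 1 were measured in the same libraries. The 5 nearest protein-coding genes on the side of lower coordinates are Chit1, 30636 bases away, Btg2, Fmod, Prelp and Optc. On the other side they are Mybph, 3267 bases away, Adora1, Myog, Ppfia4 and Tmem183a. None of the 10 was called by genotype in astrocytes. Of their values 4 were above 0 and 6 below, and they ran from -0.53 for Prelp to 0.92 for Chit1, all above the -1.14 of Chil1. With library 202 counted as aKO, Btg2 had -0.38, below the -0.12 of Chil1. Between fractions the adenosine receptor gene Adora1 was called higher in astrocytes, at 1.95 (SE 0.48), and the antiproliferative gene Btg2 at -2.35 (SE 0.34) and Ppfia4 at -2.48 (SE 0.26) were called lower. So 1 of the 10 was called higher and 2 lower, against 8.52% of all genes in each direction. Mybph and Adora1 overlap each other.

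Genes whose level followed that of Chil1 were ranked among 8956 named genes with a mean log2(CPM + 1) of at least 3. Over the 8 astrocyte libraries the 6 highest Pearson r were those of Hsd11b1, which encodes a glucocorticoid-activating enzyme (0.924), Pgf, a growth factor (0.887), the tubulin Tubb2b (0.880), Selenbp1 (0.847), the serotonin receptor Htr5b (0.820) and the lactate dehydrogenase subunit Ldhb (0.814). Hsd11b1 had 145, 165 and 57.0 CPM in WT 201, 202 and 265 and 31.2 to 69.0 CPM in aKO. Its r fell to 0.348 without WT 201 and 202, so the likeness rested on those libraries. The r of Ldhb (0.866), Pgf (0.821) and Selenbp1 (0.769) stayed above 0.7 without them, as did that of Tubb2b (0.708). The Spearman rho of the 6 ran from 0.738 for Hsd11b1 to 0.952 for Ldhb.

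Among the lowest r were those of Kctd13 (-0.884), Marcksl1 (-0.859) and Cttnbp2nl (-0.858), and Cttnbp2nl kept -0.840 without WT 201 and 202 while Kctd13 had -0.231. Over all 12 libraries Selenbp1 (0.887), Htr5b (0.866), Vit (0.856), Gstz1 (0.841), Phyh (0.838) and Mtrf1 (0.834) were highest, so Selenbp1 and Htr5b were in both sets of 6. The median r over all 8956 genes was -0.02 in astrocytes. These are the extremes of many genes in libraries that share a preparation and differ in cell mix, so they carry no p. Among the 14 astrocyte markers Aldh1l1 had the highest r with Chil1 (0.590) and Atp1b2, whose protein carries the ACSA-2 epitope, the lowest (-0.278). Without WT 201 and 202 the r of Aldh1l1 was 0.0846, against 0.581 for Aqp4 and 0.562 for Aldoc.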

How the data were processed

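Each deposited file lists, per Ensembl gene, a read count with the CPM and RPKM that the authors computed from it. The deposited CPM and RPKM equalled values recomputed from the deposited counts, the library total and the exon length. The submitters' processing notes name GRCm38, featureCounts 1.4.6-p5, Subread, STAR 2.5.1a and bcl2fastq. How strand and multiply matching reads were handled is not given in the sources used here. Groups came from the titles.

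Tests on the counts used edgeR 4.0.16 with R 4.3.3 (robust quasi-likelihood, TMM, filterByExpr with minimum count 10 and minimum total 15; Benjamini-Hochberg threshold 0.05, two-sided). The 8 astrocyte libraries gave the astrocyte comparison, and a fit of 4 groups to all 12 libraries the others. DESeq2 1.42.0, limma 3.58.1 voom, other scalings and libraries left out were alternatives. The scripts were tested on simulated data. Libraries with a shared number are fractions of 1 brain, and their deviations from group means correlated at r of 0.0823, 0.424, 0.166 and 0.404 (animals 201, 202, 203 and 205). With 2 flowthrough libraries per genotype, these r are not independent of each other. The pairs were taken as matched, by their number, only in the paired ratios and in the fit that blocks on the animal. The fit of 4 groups treated all 12 libraries as independent.

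Chil1 and all gene lists were chosen with earlier results of these data known. Named were members past the threshold, up to 4 with the smallest p in each list, all detected members of the family and partners, the 5 nearest genes on each side and the genes most and least like Chil1, of which some are not reported here. Of the 41388 identifiers, 40254 had a GENCODE symbol.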

Additional observations from a re-analysis of the deposited data

Results flagged for a closer look

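In 3 of 40 genes checked in the 5 aKO astrocyte libraries, a single library lay so far from the others that its gap exceeded Dixon's 95% critical value of 0.71 of the range, which chance alone gives in about 1 gene of 20. Ovgp1 was highest in aKO 222, at 9.18 CPM against 1.51 to 2.64 in the other 4, and its genotype log2 fold change went from 0.90 to -0.11 without that library. Itgb5 was highest in aKO 205, at 53.9 CPM against 18.3 to 22.3. Mybph, the neighbour of Chil1, was highest in aKO 222, at 2.26 CPM against 0.458 to 0.673. Chil1 itself showed no such library among the aKO astrocytes.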

How the results depend on the processing

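For Chil1 in aKO astrocytes all 16 alternatives kept a value below 0 and none passed, and leaving out 1 library gave -1.51 to -0.63. The exact permutation difference ran from -1.42 to -0.46 with 1 library left out, was -0.20 with library 202 as aKO, and passed only without WT 265, at -1.42. In flowthrough all 19 alternatives were below 0, from -1.73 to -0.31. Astrocytes against flowthrough, leaving out 1 library gave Chil1 -0.0507 (without WT astrocytes 202) and -0.0134 (without aKO flowthrough 205), up to 0.58. With the replicate block for the animal it was 0.41, and 0.33 without the block on the same 8 libraries. The difference between genotype effects turned to 0.29, 0.31 and 0.57 without flowthrough WT 201, astrocytes WT 202 and flowthrough aKO 203, and to 0.83 with library 202 as aKO, while the lowest with 1 library left out was -0.86. The block gave -0.68, and -0.72 without it. With library 202 as aKO, the flowthrough of the same brain was kept as WT.

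Genes called in aKO astrocytes numbered 8 without the filter, 15 in DESeq2, 0 with library 202 as aKO, 3 without aKO 222 and WT 265, 1 in the 12-library fit and 0 to 5 with 1 library left out. In flowthrough they numbered 45 without the filter, 1 in DESeq2 and 0 to 1 with 1 left out. Between fractions the block gave 5951 and leaving out 1 library 1691 to 4107. For the difference of effects there were 40 without the filter, and 1 each with the block and without it on the same libraries, and 0 with any library left out. The cause was not tested. Chil1 in aKO astrocytes was 46.0 CPM with library 202 as aKO, and 49.0 CPM (104 CPM in WT) once mitochondrially encoded genes and Ttr left the totals. The 6 genes most like Chil1 over 8 libraries had a median r of 0.801 over 12. The block did not bring Chil1 past the threshold in either comparison. Of the genes in the pathway and astrocyte lists, the blocked fit gained calls for 11 beside the 12-library fit and lost those of 2, C3 and Cst3. The blocked fit also leaves out the unpaired libraries, so the part of the block alone in these calls was not tested. Depth was not limiting for Chil1. Group sizes of 2 to 5 limit every comparison.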
